A study of Homo sapiens with 12 samples.

Results

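The genes described here are 8 of the 25702 in the count table, picked by their symbols in the table of normalised values, which listed all 8: TXNIP, ARRDC4, ARRDC3, MLXIP, MLX, SLC2A1, SLC2A3 and TXN. TXNIP and ARRDC4 were put in the set for their low level with TGF-β in these same libraries, so their levels and fold changes are given as a description, without a p-value. The other 6 were added as the related arrestin, the transcription factor pair, the glucose transporters and the thioredoxin to which TXNIP binds. RNA was sequenced from WI-38 cells, a line of normal human lung fibroblasts, grown in low-glucose medium with serum. Flasks were left without TGF-β or given it for 1 day (D1 and D1+ TGF-β, passages 2 to 3) or for 20 days (D20 and D20+ TGF-β, passages 5 to 6), with n = 3 flasks per condition. All 4 conditions were grown in the same kind of medium, TGF-β was used at 1 concentration, and no gene was altered in any of them. At the start, the methods state a medium change for the untreated flasks. They do not say whether the treated flasks got fresh medium then. The D1 flasks were treated at confluence, while the D20 flasks were reseeded, refed regularly and seeded to end just short of confluence. Day, passage, feeding and cell density cannot be told apart here. The methods state that the D20 flasks were seeded from 1 treated and 1 untreated flask, so p-values measure the spread between flasks and not between separate starting cultures. The glucose left in the medium at harvest was not analysed here.

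TXNIP, the thioredoxin-interacting protein, is an α-arrestin that binds reduced thioredoxin and lowers glucose uptake by drawing glucose transporters off the cell surface. Its transcription follows the supply of glucose: when glucose 6-phosphate builds up, the factor MondoA (encoded by MLXIP) enters the nucleus with its partner MLX and binds paired E box half-sites, called carbohydrate response elements, before the start of TXNIP and of its closest relative ARRDC4. Mitogens and loss of glucose are known to lower TXNIP RNA in many cells.

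Library totals ranged from 8674488 to 18286197 counts, and levels are given as cpm, counts scaled to a common library total with a composition factor (TMM, 0.969 to 1.04). The 9490 genes with 10 cpm or more in 6 or more libraries were tested with edgeR's quasi-likelihood test, called at a Benjamini-Hochberg adjusted p under 0.01. All 8 fibroblast markers passed this filter, with summed levels of 13416 to 22769 cpm over the libraries. ACTA2, the gene of αSMA, averaged 180 cpm without and 754 with TGF-β at D1, and 282 without and 309 with it at D20. In the same order, the myofibroblast markers TAGLN and CNN1 averaged 1000, 1828, 1081 and 1126 cpm, and 37.2, 85.8, 52.4 and 38.7 cpm. CNN1 was thus lower with TGF-β at D20. For the protein, the paper reports αSMA raised with TGF-β at D20 and no positive cells at D1. Summed levels of 3 endothelial markers stayed at 0.446 to 1.69 cpm, with CDH5 at 0. Those of 3 leukocyte markers, with CD3E at 0, were 5.53 to 6.25 cpm at D20, of which CD14 made up 5.78 on average, and 0 to 0.618 elsewhere. Among 5 epithelial markers the sums were 36.5 to 63.2 cpm, nearly all from KRT8, KRT18 and KRT19. Over the conditions EPCAM averaged 0.177 to 0.354 cpm and CDH1 0 to 0.0939 cpm. The D1 libraries lay farther from their group means than the others, by a median of 0.0922 to 0.118 on the log2 scale against 0.0420 to 0.0829.

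The sequences before TXNIP and ARRDC4 are shown because both genes are known to follow glucose through elements before their start. The windows are the 250 bases before the RefSeq start on GRCh38.p14, at chr1:145996580-145996829 on the minus strand for TXNIP and chr15:97960453-97960702 on the plus strand for ARRDC4. Capitals mark CACGNG followed 5 bases later by CACGNG or CNCGTG (the paired half-site), the E box CACGTG, and CCAAT or its reverse ATTGG, each searched on both strands; CACGTG is one form of CACGNG, so the first motifs can overlap.
TXNIP: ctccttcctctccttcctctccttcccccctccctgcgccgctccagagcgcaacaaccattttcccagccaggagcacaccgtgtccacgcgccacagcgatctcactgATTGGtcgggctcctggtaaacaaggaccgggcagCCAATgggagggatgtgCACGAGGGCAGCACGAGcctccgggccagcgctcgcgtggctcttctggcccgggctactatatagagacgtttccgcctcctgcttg
ARRDC4: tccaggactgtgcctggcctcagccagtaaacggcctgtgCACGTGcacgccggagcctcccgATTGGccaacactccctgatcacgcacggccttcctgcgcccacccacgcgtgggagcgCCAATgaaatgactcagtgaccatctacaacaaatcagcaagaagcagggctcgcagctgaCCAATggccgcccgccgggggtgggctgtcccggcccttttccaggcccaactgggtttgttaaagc
The TXNIP window held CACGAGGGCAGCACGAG from 88 to 72 bases before the start, with a CCAAT box at 105 bases and an inverted one at 140 bases before it. The ARRDC4 window held CACGTG from 210 to 205 bases before the start, and no paired half-site was found in it. It also held CCAAT boxes at 128 and 67 bases and an inverted one at 187 bases before the start. Of 27305 windows of this length in RefSeq, 0.0659% (18 windows) held the paired half-site, 6.46% held CACGTG and 33.0% held CCAAT. Of the other members with a window, MLX also held CACGTG, from 50 to 45 bases before its start, and ARRDC3, MLXIP and SLC2A1 held CCAAT without CACGTG. These matches are letters in a window, not measured binding.

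TXNIP lies at chromosome 1, 145438490 to 145442635, on the plus strand of GRCh37, the build of the counts (the strand is the opposite one on GRCh38), and no other annotated gene overlaps it. At D1 the 3 untreated flasks had 826, 888 and 754 counts (69.7, 58.0 and 63.1 cpm), and the 3 flasks with TGF-β had 51, 88 and 46 counts (5.92, 4.90 and 5.36 cpm). At D20 the untreated flasks had 1330, 1277 and 2401 counts (126.8, 95.2 and 144 cpm), and those with TGF-β had 46, 30 and 44 counts (2.58, 3.03 and 4.13 cpm). Every treated flask thus lay below every untreated flask of its day, and the untreated flasks of D20 all lay above those of D1. The means without and with TGF-β were 63.6 ± 5.90 and 5.39 ± 0.511 cpm on day 1, and 122 ± 24.9 and 3.25 ± 0.798 cpm on day 20 (SD, n = 3 each). On the log2 scale the difference was -3.58 (SE 0.18) in D1+ TGF-β vs D1, an 11.9-fold lower level, and -5.27 (SE 0.19) in D20+ TGF-β vs D20, a 38.5-fold lower level. Both were the lowest of the 9490 log2 fold changes in their comparison. TXNIP passed the filter through the untreated libraries alone, since each treated one was under 10 cpm, so a gene kept in this way had to differ.

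The order of the TXNIP levels was D20+ TGF-β, D1+ TGF-β, D1 and D20, and no neighbours in it overlapped. D20 was 0.94 (SE 0.14) above D1 on the log2 scale, and D20+ TGF-β was 0.75 below D1+ TGF-β (log2 fold change -0.75, SE 0.24). The difference of the TGF-β responses, D20 minus D1, was -1.69 (SE 0.28). The bulk RNA does not tell fewer expressing cells from less RNA per cell. CD14 moved with the level of TXNIP at D20, at the low values given above, and its part in the result was not tested.

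ARRDC4, an α-arrestin that shares with TXNIP the action on glucose uptake but is not known to bind thioredoxin, lies at chromosome 15, 98503933 to 98517063, on the plus strand of GRCh37. At D1 the untreated flasks had 38.4, 34.3 and 40.1 cpm and the treated flasks 17.9, 18.6 and 18.4 cpm. At D20 the untreated flasks had 126.9, 126.5 and 147 cpm and the treated flasks 14.4, 18.0 and 17.5 cpm. The treated flasks lay below the untreated ones on both days, while those of D1+ TGF-β and D20+ TGF-β overlapped. The means without and with TGF-β were 37.6 ± 2.98 and 18.3 ± 0.374 cpm on day 1, and 133.6 ± 12.0 and 16.6 ± 1.95 cpm on day 20 (SD, n = 3 each). Unlike TXNIP, ARRDC4 was above 10 cpm in all 12 libraries.

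For ARRDC4 the log2 fold change was -1.03 (SE 0.10) in D1+ TGF-β vs D1, a 2.05-fold lower level and the 127th lowest of 9490. It was -3.02 (SE 0.10) in D20+ TGF-β vs D20, an 8.12-fold lower level and the 6th lowest. Without TGF-β, the level at D20 was 1.83 (SE 0.09) above that at D1 on the log2 scale, the 46th highest log2 fold change, where TXNIP was the 341st highest. With TGF-β, D20 and D1 differed by -0.16 (SE 0.11). The difference of responses of ARRDC4 was -1.99 (SE 0.14), beside -1.69 for TXNIP. Of the pair, TXNIP had the larger difference with TGF-β on each day and ARRDC4 the larger difference between the days without it.

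**Figure D1:**
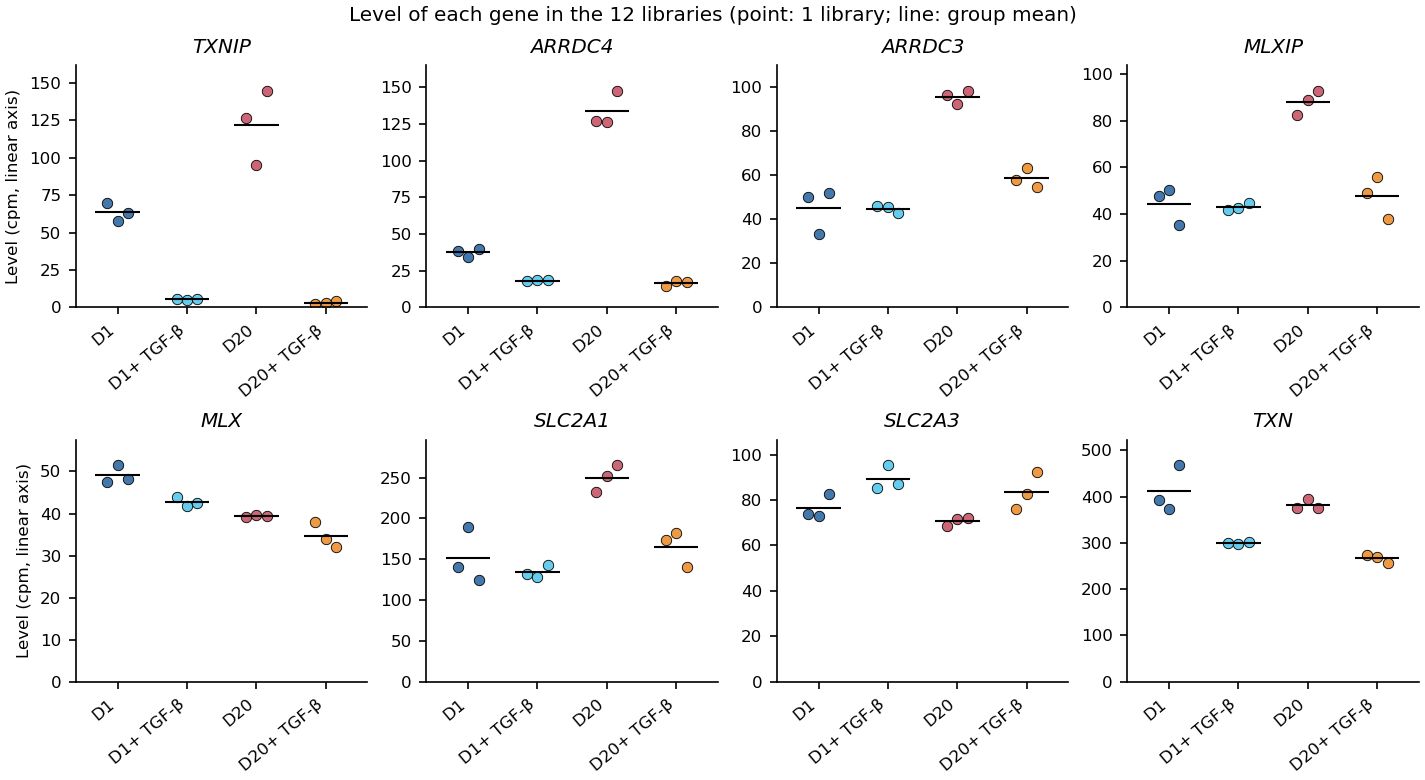
Level in cpm (linear axis from 0) of each of the 8 genes in the 12 libraries, by condition; a point is 1 library and a line is the mean of 3. TXNIP and ARRDC4 have treated flasks below all untreated ones at both times, with treated TXNIP at 2.58 to 5.92 cpm, while D1 and D1+ TGF-β overlap for ARRDC3, MLXIP and SLC2A1.

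ARRDC3, an α-arrestin that guides NEDD4-family ligases to adrenergic receptors and integrins, was called lower with TGF-β at D20. It lies at chromosome 5, 90664448 to 90679134, on the minus strand, with ARRDC3-AS1 on the opposite strand, and the use of strand in the counting is not given in the sources used here. Untreated and treated flasks had 49.9, 33.5, 51.8 and 45.9, 45.6, 42.9 cpm at D1. At D20 they had 96.2, 92.4, 98.0 and 57.9, 63.1, 54.6 cpm. The D1 groups overlapped, whereas the 3 untreated D20 flasks stood above all others. The log2 fold change was -0.00 in D1+ TGF-β vs D1 (95% interval -0.25 to 0.25, adjusted p = 0.995) and -0.71 (SE 0.12) in D20+ TGF-β vs D20 (adjusted p = 4.73e-04, edgeR). D20 vs D1 gave 1.09 (SE 0.12, adjusted p = 1.07e-05).

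The difference of the 2 responses of ARRDC3, -0.71 (SE 0.18), missed the threshold (adjusted p = 0.0128). Without D1 replicate 2, the D1 flask of 33.5 cpm, it was -0.53 and passed (0.00154), and it passed without D1 replicate 3 at -0.82 (0.00680); over 21 alternatives the adjusted p ran from 3.24e-09 to 0.0362. Between the days with TGF-β ARRDC3 differed by 0.38 (adjusted p = 0.0229) and passed without D1 replicate 2 (2.93e-04, range over 22 alternatives 6.10e-06 to 0.0828).

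MLXIP, the gene of the glucose-sensing factor MondoA, was at a like level in 3 of the conditions and higher at D20 without TGF-β. It lies at chromosome 12, 122516628 to 122631894, on the plus strand. Untreated and treated flasks had 47.7, 50.3, 35.4 and 41.9, 42.6, 44.8 cpm at D1. At D20 they had 82.4, 89.0, 92.6 and 49.0, 56.0, 38.0 cpm. The untreated D20 flasks stood above all the others, which overlapped across the 3 remaining conditions. The log2 fold change was -0.05 in D1+ TGF-β vs D1 (95% interval -0.32 to 0.22, adjusted p = 0.835), -0.89 (SE 0.13) in D20+ TGF-β vs D20 (adjusted p = 1.64e-04) and 0.98 (SE 0.13) in D20 vs D1 (4.49e-05). With TGF-β, D20 and D1 differed by 0.15 (95% interval -0.12 to 0.42, adjusted p = 0.397).

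The responses of MLXIP differed between the days by -0.84 (SE 0.19, adjusted p = 0.00760), and MLXIP was the 1 member of the 6 tested that was called in this test, where 10.4% of all genes were (4.51% higher, 5.87% lower). This call was lost in 11 of 21 alternatives, 9 of which left out a library (each but D1 replicate 2 and D20+ TGF-β replicates 2 and 3), with adjusted p from 5.48e-10 to 0.0240 and values from -0.96 to -0.70. MLX, the partner that MondoA needs for binding DNA, lies at chromosome 17, 40719090 to 40725257, on the plus strand, with PSMC3IP on the opposite strand. Its flasks had 47.4, 51.4 and 48.3 cpm at D1 and 44.0, 41.9 and 42.5 at D1+ TGF-β. They had 39.2, 39.7 and 39.5 cpm at D20 and 38.0, 34.0 and 31.9 at D20+ TGF-β. All differences of MLX were small: the responses to TGF-β were -0.20 at D1 (95% interval -0.35 to -0.05, adjusted p = 0.0681) and -0.18 at D20 (95% interval -0.33 to -0.03, adjusted p = 0.0696). The level fell from D1 to D20 by 0.32 (SE 0.07, adjusted p = 0.00308) on the log2 scale without TGF-β and by 0.30 (SE 0.08, adjusted p = 0.00546) with it. The first call was lost without any of the D20 replicates 1, 2 and 3 (adjusted p 0.0124, 0.0121 and 0.0141; range over 22 alternatives 1.28e-06 to 0.0141). The second was lost in 7 of 22 alternatives, among them leaving out D1+ TGF-β replicate 1, 2 or 3 or D20+ TGF-β replicate 2 or 3 (range 8.76e-05 to 0.0240).

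SLC2A1, which encodes the transporter GLUT1 on which TXNIP acts, was highest at D20 without TGF-β, as MLXIP and ARRDC3 were. It lies at chromosome 1, 43391024 to 43424564, on the minus strand, where the pseudogene ATP6V0CP4 overlaps it, with ENSG00000288955 on the opposite strand. Untreated and treated flasks had 140, 189.7, 125 and 132, 129, 143 cpm at D1. At D20 they had 233, 252, 265 and 173, 182, 140.0 cpm. At D1 the groups overlapped and the flask of 189.7 cpm, D1 replicate 2, stood above the other 5, while at D20 all treated flasks were below the untreated ones. SLC2A1 did not pass the test in D1+ TGF-β vs D1 (-0.18, 95% interval -0.44 to 0.09, adjusted p = 0.367). It fell by 0.60 on the log2 scale (SE 0.13, adjusted p = 0.00291) in D20+ TGF-β vs D20 and rose by 0.72 (SE 0.13, adjusted p = 5.93e-04) in D20 vs D1. The fall was not called without D20 replicate 2 (adjusted p = 0.0116), D20 replicate 3 (0.0150) or D20+ TGF-β replicate 3 (0.0108), with a range of 1.03e-11 to 0.0150 over 22 alternatives. The responses differed by -0.42 (adjusted p = 0.133), which became -0.62 (0.00480) without D1 replicate 2 (range over 21 alternatives 1.49e-04 to 0.249).

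SLC2A3, which encodes the high-affinity transporter GLUT3, lies at chromosome 12, 8071826 to 8171603, on the minus strand, and its near-identical copy SLC2A14 may take or give some of its reads (107 counts on SLC2A14 over the 12 libraries). ENSG00000240739 and ENSG00000255581 overlap it on the same strand, and ENSG00000288043, HSPD1P12 and a Y_RNA on the opposite one. Its flasks had 73.6, 73.0 and 82.8 cpm at D1 and 85.4, 95.2 and 87.0 at D1+ TGF-β. They had 68.7, 71.7 and 72.0 cpm at D20 and 76.1, 82.7 and 92.2 at D20+ TGF-β. The treated flasks were above the untreated ones on both days, but neither difference passed: 0.23 at D1 (95% interval 0.07 to 0.38, adjusted p = 0.0590) and 0.24 at D20 (95% interval 0.08 to 0.40, adjusted p = 0.0317). D20 and D1 differed by -0.11 without TGF-β (adjusted p = 0.281) and by -0.10 with it (adjusted p = 0.336).

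TXN, which encodes thioredoxin, the small redox protein that TXNIP binds, fell with TGF-β on both days. It lies at chromosome 9, 113006090 to 113018787, on the minus strand. Untreated and treated flasks had 393, 374, 467 and 299, 297, 301 cpm at D1. At D20 they had 375, 395, 375 and 274, 269.8, 257 cpm. Every treated flask was below every untreated flask, of either day. The log2 fold change was -0.46 (SE 0.08, adjusted p = 0.00105) at D1 and -0.52 (SE 0.08, adjusted p = 2.07e-04) at D20, and these differed by -0.06 (95% interval -0.28 to 0.17, adjusted p = 0.766). The D1 call missed the threshold in the fit of its 6 libraries alone (0.0106), in a range of 2.96e-15 to 0.0106. From D1 to D20 TXN did not pass the test without TGF-β (-0.11, adjusted p = 0.283) or with it (-0.16, adjusted p = 0.107).

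Over the 6 members tested, 1 was called in D1+ TGF-β vs D1 (TXN, lower), where 13.4% of the 9490 genes were called (6.89% higher, 6.5% lower). In D20+ TGF-β vs D20, 4 were called, all lower (ARRDC3, MLXIP, SLC2A1 and TXN), where 27.5% of all genes were called (12.8% higher, 14.7% lower). In D20 vs D1, 4 were called, ARRDC3, MLXIP and SLC2A1 higher and MLX lower, against 36.4% of all genes, 18.9% higher and 17.6% lower. Between the days with TGF-β, MLX alone was called, lower, against 34.8% of all genes (17.2% higher, 17.7% lower). These comparisons share libraries: the untreated D20 flasks enter both the fall with TGF-β and the rise from D1 of ARRDC3, MLXIP and SLC2A1. Groups of 3 that did not overlap were common in this table, 36.4% of genes in D1+ TGF-β vs D1, 58.3% in D20+ TGF-β vs D20, 55.6% in D20 vs D1 and 63.2% between the days with TGF-β.

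**Figure D2:**
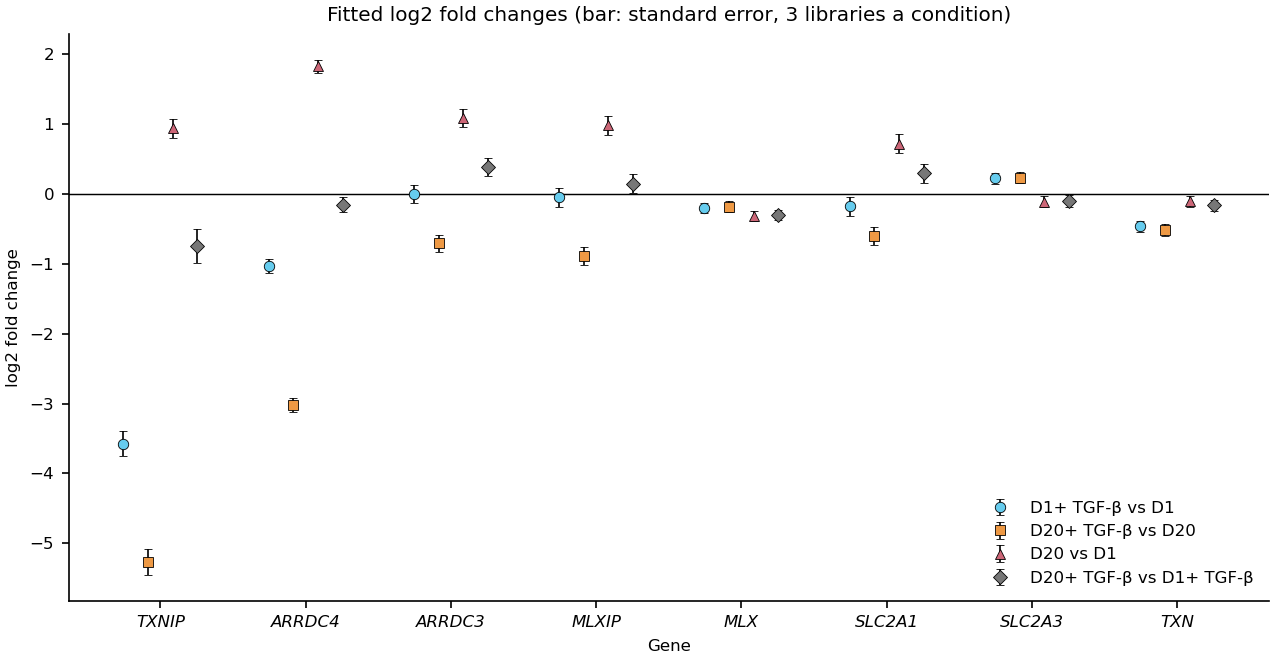
Fitted log2 fold changes of the 8 genes in the 4 comparisons, with bars of 1 standard error (n = 3 libraries a condition). TXNIP and ARRDC4 lie at -5.27 and -3.02 in D20+ TGF-β vs D20, and MLX, SLC2A3 and TXN stay within -0.52 and 0.24 in all 4.

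Divided by exon length, TXN was far above the other members, at 264 ± 8.63 to 407 ± 48.9 cpm per kb of exon over the conditions (SD, n = 3). Of the transporters, SLC2A1 had 20.3 ± 1.16 to 37.8 ± 2.43 cpm per kb and SLC2A3 had 9.77 ± 0.253 to 12.3 ± 0.726. MLXIP was at 3.10 ± 0.110 to 6.33 ± 0.371 and MLX at 8.14 ± 0.720 to 11.5 ± 0.495 cpm per kb. TXNIP went from 34.0 ± 6.93 cpm per kb at D20, near SLC2A1, to 0.904 ± 0.222 at D20+ TGF-β, below MLXIP. ARRDC4 went from 32.9 ± 2.95 to 4.09 ± 0.479 cpm per kb in the same conditions. At D20 without TGF-β the means of TXNIP and ARRDC4 were thus closer than their spread, and with TGF-β ARRDC4 was the higher of the pair on both days.

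**Figure D3:**
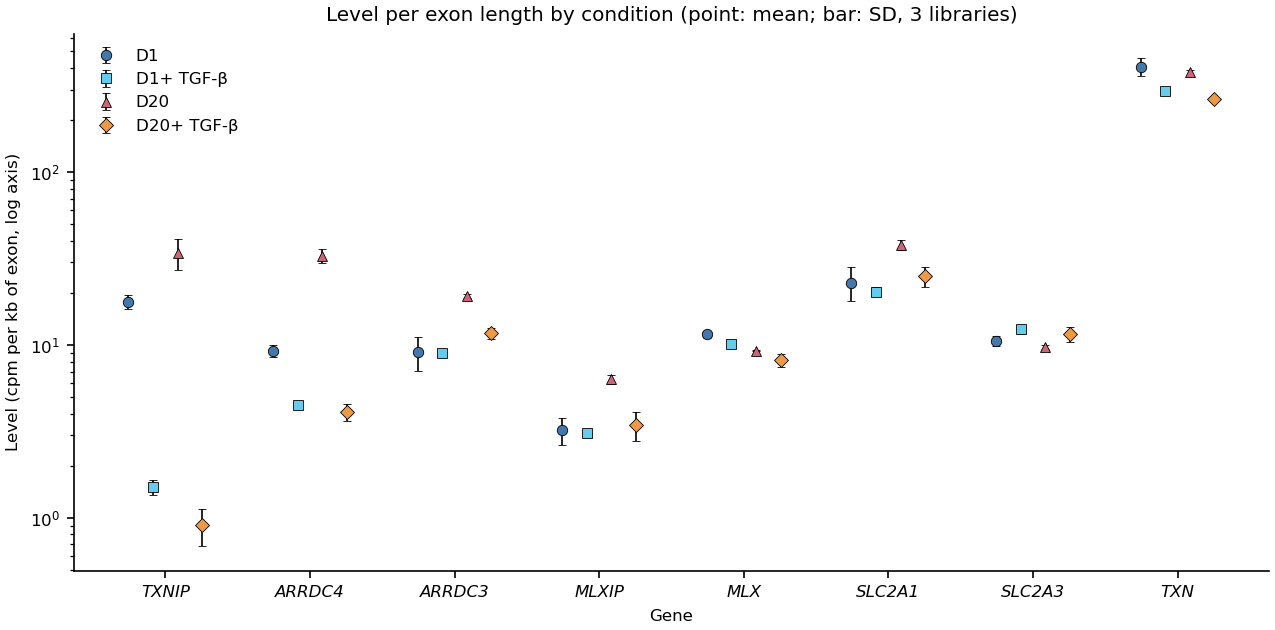
Mean level of each gene in cpm per kb of exon (log axis) in the 4 conditions, with bars of 1 SD (n = 3). TXNIP spans from 34.0 at D20 to 0.904 at D20+ TGF-β, and TXN lies at 264 or above throughout.

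The genes whose log2 cpm, centred on their own mean, lay closest to TXNIP over the 12 libraries were ANKRD33B, A2M, ADAMTS19, GPRC5A and LZTS1, with root mean square differences of 0.996, 1.20, 1.21, 1.23 and 1.24. ARRDC4, left out of this ranking as a member, would be the 5th at 1.24. TXNIP itself varied by 2.22 on this measure, so that even the closest gene left a large remainder. Part of that is size and not shape, since ANKRD33B had a Pearson correlation of 0.967 with TXNIP. ANKRD33B averaged 17.7 cpm without and 3.65 with TGF-β on day 1, and 32.7 without and 4.31 with it on day 20. A2M, which encodes the protease inhibitor α2-macroglobulin, averaged, in the same order, 184, 109, 479.5 and 19.2 cpm. The order of the conditions was that of TXNIP for A2M but not for ANKRD33B, whose levels with TGF-β were higher at D20.

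ARRDC4 had closer neighbours: INMT, CHRM2, MRVI1, GPX3 and PDE5A, at 0.221, 0.290, 0.371, 0.372 and 0.386, against its own 1.20. INMT, which encodes an N-methyltransferase of indoles, averaged, in that order, 41.1, 18.4, 126 and 20.6 cpm, beside 37.6, 18.3, 133.6 and 16.6 for ARRDC4. GPX3, a secreted glutathione peroxidase, averaged 15.2, 9.99, 69.9 and 6.50 cpm, and PDE5A, the cGMP phosphodiesterase, 1267, 585, 3313 and 841 cpm. By this measure, which counts the size of changes as well as their shape, TXNIP ranked 5426th in closeness to ARRDC4. The pair lay 1.24 apart, more than ARRDC4's own 1.20, so a gene without any change would rank closer. The rank therefore does not compare the shapes of the pair. The names depend on the measure: 2 of the 10 were kept with Pearson's correlation in its place.

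**Figure D4:**
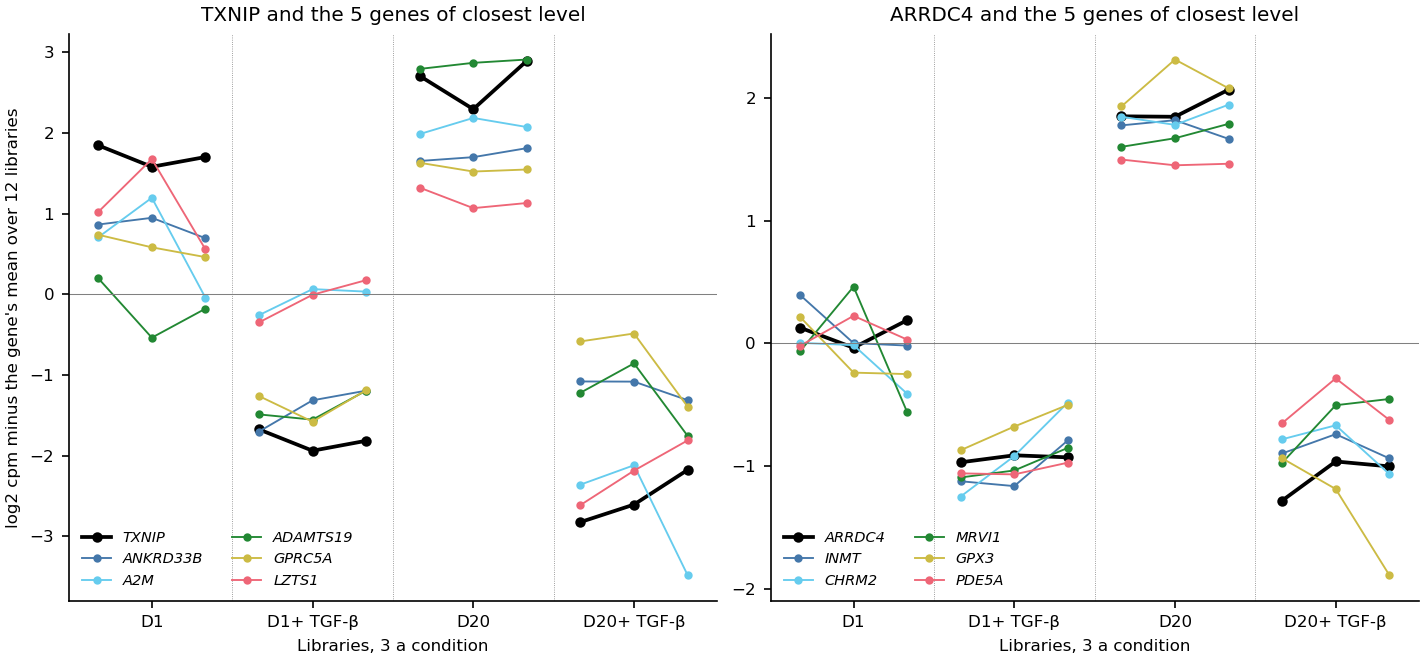
Log2 cpm minus the mean of each gene over the 12 libraries, for TXNIP (left) and ARRDC4 (right) in black and their 5 closest genes; points joined by lines are the 3 libraries of a condition, whose order has no meaning. The genes beside ARRDC4 lie at root mean square differences of 0.221 to 0.386 from it, and those beside TXNIP at 0.996 to 1.24.

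The wider pathway was taken as 6 lists of 93 genes, of which 67 were tested. In D1+ TGF-β vs D1, 11 were called (7 higher, 4 lower), or 16.4%, beside 13.4% of all genes. In D20+ TGF-β vs D20, 26 were called (9 higher, 17 lower), or 38.8%, beside 27.5%, with a median log2 fold change of -0.08 against 0.01 for all genes. The D1 count was 4, 6 and 7 without D1+ TGF-β replicates 2, 3 and 1. In those fits 6.52%, 9.58% and 7.74% of all genes were called. Without D1 replicate 2 the D1 count was 18, beside 19.8% of all genes. The D20 count was 17 without D20 replicate 2 or D20 replicate 3, beside 18.9% and 19% of all genes. For the difference of responses 10 were called, or 14.9% beside 10.4%. That count was 17 without D1 replicate 2, beside 18.1% of all genes.

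The thioredoxin list held thioredoxin reductases, peroxiredoxins and other genes of the system, and all 14 were tested. At D20, 6 were called, all lower (42.9% beside 27.5% of all genes, median -0.28), and at D1, 1 was called, lower (7.14% beside 13.4%). TXNRD1, the cytosolic thioredoxin reductase, fell by 0.72 (SE 0.07) at D1 (adjusted p = 1.77e-05) and by 0.86 (SE 0.07) at D20 (1.40e-06) on the log2 scale, from 1110 ± 70.9 to 676 ± 37.0 and from 1075 ± 47.6 to 592 ± 20.9 cpm. It thus fell on both days, as TXN did. PRDX1, PRDX6 and NXN fell at D20 by 0.93 (SE 0.07), 0.87 (SE 0.10) and 0.80 (SE 0.14), with adjusted p of 3.64e-07, 1.13e-05 and 4.11e-04. At D1 they did not pass the test, with log2 fold changes of -0.25, 0.10 and -0.52 (adjusted p 0.0170, 0.485 and 0.0164). Without D1 replicate 2, PRDX1 (0.00740, range 5.64e-11 to 0.0788) and NXN (9.68e-04, range 2.98e-07 to 0.0891) did.

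Of the other arrestins and the NEDD4-family ligases, with which α-arrestins work, 10 of 14 were tested, with 3 higher and 2 lower at D1 (50% beside 13.4% of all genes) and 5 lower at D20 (50% beside 27.5%). NEDD4L fell by 0.90 (SE 0.12, adjusted p = 1.42e-04) at D1 and 0.80 (SE 0.11, adjusted p = 8.65e-05) at D20. SMURF2, a ligase that acts on SMAD proteins and TGF-β receptors, moved in opposite directions, by 0.55 (SE 0.10, adjusted p = 0.00185) at D1 and -1.01 (SE 0.10, adjusted p = 6.61e-06) at D20. Its D1 call was lost without D1+ TGF-β replicate 2 (0.0127, range 3.58e-15 to 0.0127). ARRB1, the β-arrestin 1 gene, and WWP1 fell at D20 by 0.61 (SE 0.10, adjusted p = 4.26e-04) and 0.46 (SE 0.08, adjusted p = 5.20e-04).

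In the list of glucose transport and phosphorylation 7 of 17 genes were tested, 0 were called at D1 by edgeR (4 at an unadjusted p under 0.05, 1 by DESeq2 and 0 by limma-voom), and at D20 SLC2A8, HK1 and G6PC3 were lower and SLC2A6 was higher (57.1% beside 27.5% of all genes). SLC2A8, an intracellular glucose transporter, fell by 0.60 (SE 0.11, adjusted p = 8.56e-04). HK1, a hexokinase that makes glucose 6-phosphate, the signal to MondoA, fell by 0.41 (SE 0.07, adjusted p = 2.56e-04), from 193 ± 1.24 to 145 ± 8.23 cpm. HK2, which makes the same product, had a larger difference of -0.64 (SE 0.19) but was not called (adjusted p = 0.0164). SLC2A6 was 0.57 higher (SE 0.14, adjusted p = 0.00534) and G6PC3, a ubiquitous glucose-6-phosphatase, fell by 0.38 (SE 0.09, adjusted p = 0.00429). The SLC2A6 call was lost without D20 replicate 1, 2 or 3 or D20+ TGF-β replicate 1 or 2 (range 4.74e-08 to 0.0276), and that of G6PC3 without D20 replicate 2 or 3 or any D20+ TGF-β replicate (range 5.75e-08 to 0.0207). The insulin-responsive SLC2A4 had 14 counts over the 12 libraries and the liver transporter SLC2A2 had 1.

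Of the MYC, MAX and MLX network, which shares E boxes and partners with MondoA, 7 of 11 genes were tested, with 1 called at D1 (14.3% beside 13.4% of all genes) and 3 at D20 (42.9% beside 27.5%). MXD1, a MAX partner that represses, rose by 0.76 (SE 0.11, adjusted p = 2.11e-04) at D1 and by 0.40 (SE 0.10, adjusted p = 0.00792) at D20. MYC rose at D20 by 0.74 (SE 0.15, adjusted p = 0.00112) and MXD4 fell by 0.54 (SE 0.07, adjusted p = 7.36e-05). The D20 call of MXD1 was lost in 10 of 22 alternatives, among them leaving out D1+ TGF-β replicate 1 or 2 or any of the 6 D20 and D20+ TGF-β libraries (range 4.11e-05 to 0.0330). MLXIPL, the gene of the liver-type factor ChREBP, had 1 count in the 12 libraries, where 3 counts would be 0.0196 cpm, so that MLXIP was the detected one of the 2 Mondo genes.

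Of the reported glucose-responsive targets, 6 of 11 genes were tested, with 1 called at D1, lower (16.7% beside 13.4% of all genes), and 2 at D20, both higher (33.3% beside 27.5%), counts too small to describe the list. FASN and ACACA, the enzymes of fatty acid synthesis, rose at D20 by 1.50 (SE 0.14, adjusted p = 2.40e-06) and 0.75 (SE 0.12, adjusted p = 2.82e-04). FASN went from 211 ± 0.696 to 597 ± 23.9 cpm. TKT, of the pentose phosphate pathway, fell at D1 by 0.44 (SE 0.10, adjusted p = 0.00628), a call lost without D1 replicate 1, D1+ TGF-β replicate 1 or 2 or D20 replicate 2 or 3, in a range of 3.19e-11 to 0.0435. KLF10, PFKFB3 and LDHA, the other tested genes of this list, were called on neither day.

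Of the energy and nutrient sensing genes, 23 of 26 were tested, with 3 called at D1, all higher (13% beside 13.4% of all genes), and 4 higher and 2 lower at D20 (26.1% beside 27.5%), shares at the background. DDIT4, the stress-induced inhibitor of mTORC1, rose by 1.23 (SE 0.13, adjusted p = 1.82e-05) at D1 and 1.44 (SE 0.12, adjusted p = 9.28e-07) at D20, from 13.6 ± 2.22 to 31.9 ± 3.52 and from 22.0 ± 1.94 to 59.9 ± 5.88 cpm. IRS2, the insulin receptor substrate, rose at D20 by 0.82 (SE 0.09, adjusted p = 1.23e-05). PRKAB2, a β subunit of AMPK, moved by 0.39 (SE 0.07, adjusted p = 0.00206) at D1 and -0.44 (SE 0.07, adjusted p = 3.91e-04) at D20, and its D1 call was lost without D1+ TGF-β replicate 2 or 3 (range 1.35e-07 to 0.0161). SESN2 rose at D20 by 0.54 (SE 0.14, adjusted p = 0.00879), a call lost in 11 of 22 alternatives, 8 of them without a library: D1 replicate 3, any of D1+ TGF-β, any of D20, or D20+ TGF-β replicate 3 (range 3.14e-07 to 0.0360). At D1 it was higher by 0.55 and missed the threshold (adjusted p = 0.0147), though it passed in 6 of 22 alternatives. Its responses differed by -0.02 (adjusted p = 0.968), so no difference between the days was called.

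**Figure D5:**
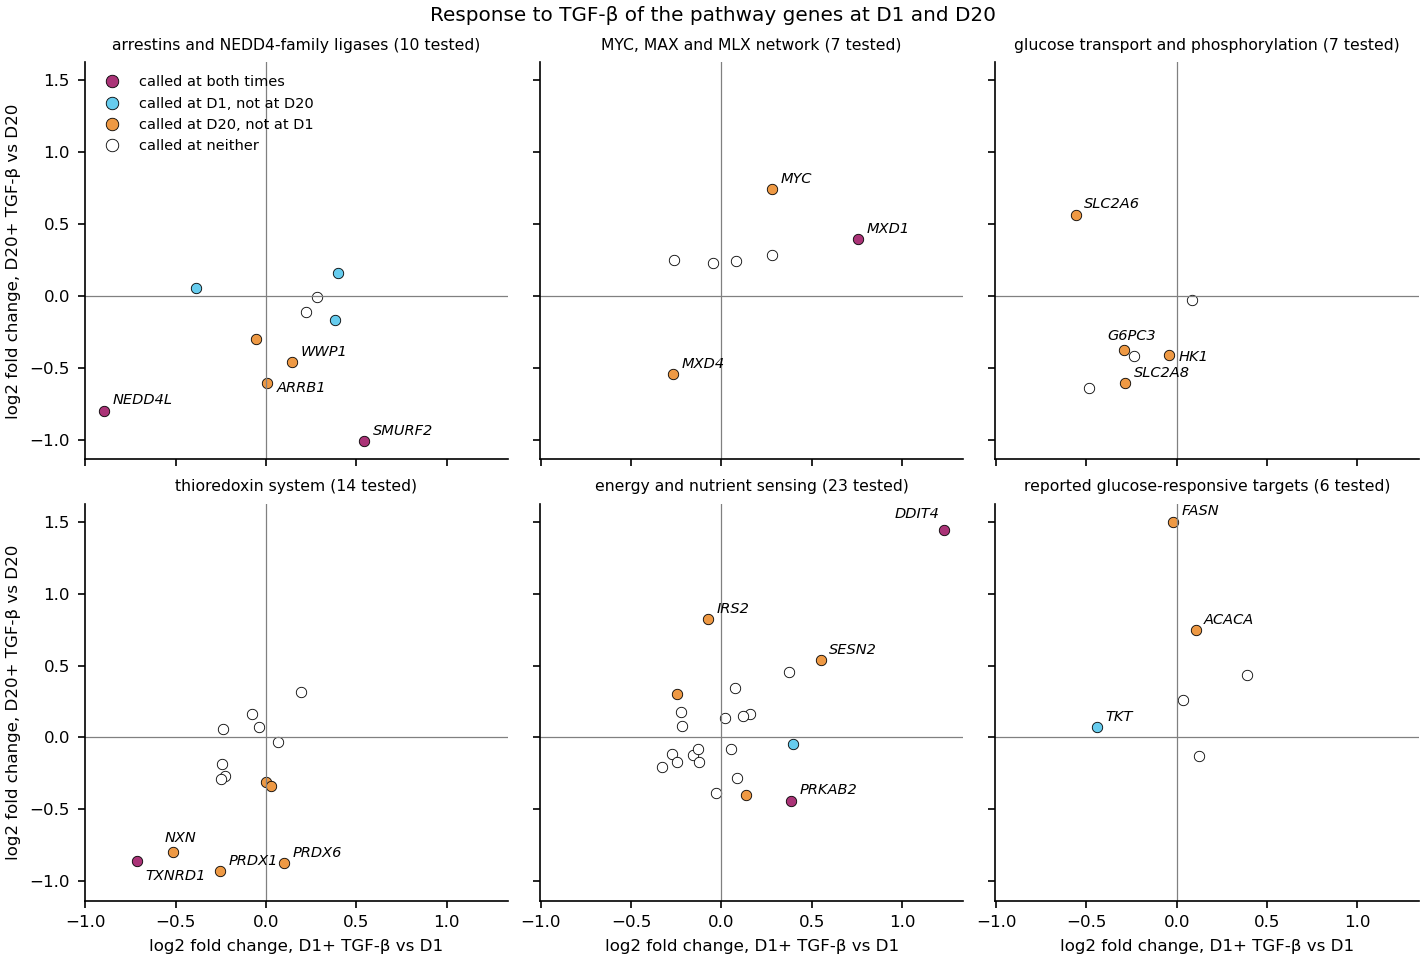
Log2 fold change with TGF-β at D1 (horizontal) and at D20 (vertical) of the 67 tested genes of the 6 lists; a point is 1 gene, coloured by the comparison in which it was called, and named genes are labelled. Points lie mostly below 0 on the vertical axis in the thioredoxin panel, and FASN and DDIT4 are at 1.50 and 1.44.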

How the data were processed

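RNA of 12 flasks of WI-38 fibroblasts was sequenced by the authors with a directional kit, in paired ends, each library on 4 lanes. The authors trimmed the reads with Trimmomatic, mapped them to hg19 with Rsubread and deposited raw counts per gene and lane, without normalization; the counting program and its use of strand are not given in the sources used here. They also deposited voom's log2 cpm for 9412 genes, used for symbols and 1 alternative. Columns were assigned to samples by name, with 0 left unassigned, and counts were summed over the 4 lanes. Of 20434 genes with a count, 9490 had at least 10 cpm in at least 6 libraries. edgeR 4.0.16 in R 4.3.3 was fitted over the 12 libraries (TMM, quasi-likelihood test, 1 mean per condition, Benjamini-Hochberg adjustment over all 9490 genes, threshold 0.01); log2 cpm used a prior count of 2. SEs were taken from the log2 fold change and its F statistic (size divided by the square root); errors include counting error at these depths. Intervals are log2 fold change ± SE times the limit that holds the central 95% of the normal distribution. They are narrower than the quasi-likelihood test would give. For TXN between the days with TGF-β the interval was -0.32 to -0.0056, at an unadjusted edgeR p of 0.0625. The code was tested on simulated data.

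The members and lists were chosen with earlier results of these data known. Genes named are the members, up to 4 genes per list with the largest called log2 fold change with TGF-β, and the 5 genes closest to TXNIP and to ARRDC4. Genes outside this rule (ARRDC1, ARRDC2, HK2, KLF10, PFKFB3, LDHA and genes with few counts) were named after their values were seen. Positions are from the GENCODE annotation of GRCh37, promoter windows from RefSeq, where 7 of the 8 members matched. The alternatives were DESeq2 1.42.0, limma 3.58.1 (voom on libraries or lanes, and on the deposited log2 values), other factors and filters, only the 6 libraries of a comparison, a replicate block, and leaving out each library.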

Additional observations from a re-analysis of the deposited data

Results flagged for a closer look

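Of the 28 members and list genes examined (the 6 tested members and the 22 named list genes), 9 had a response to TGF-β at D20 that differed from that at D1 by edgeR's test of the difference itself (adjusted p under 0.01), where 10.4% of all genes did. The list genes had been named for their large called change on either day, which favours genes whose responses differ, so the count says nothing about the lists. Among the members this was MLXIP, with a difference of -0.84 (adjusted p = 0.00760). Lower at D20 than at D1 were also the responses of SMURF2 (-1.56, adjusted p = 1.79e-05), PRDX6 (-0.97, 3.23e-04), PRKAB2 (-0.83, 1.71e-04), PRDX1 (-0.68, 4.51e-04) and WWP1 (-0.60, 0.00262). Higher were those of FASN (1.52, 1.67e-04), SLC2A6 (1.13, 0.00187) and IRS2 (0.90, 5.09e-04). SMURF2 and PRKAB2 were called in opposite directions on the 2 days. WWP1 lost its call without D1+ TGF-β replicate 2 (0.0113) or D20 replicate 3 (0.0102), in a range of 6.64e-09 to 0.0113 over 21 alternatives.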

How the results depend on the processing

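Counts and fold changes were recomputed under 22 alternatives, 12 of which left out a library. There were 21 for the difference of responses and for TXNIP between the days with TGF-β, where it failed the filter in the fit of 6 libraries, and 3 for the closest patterns. TXNIP kept its log2 fold change within -3.64 to -3.49 at D1 and -5.47 to -5.06 at D20. ARRDC4 kept -1.10 to -0.98 and -3.08 to -2.89, the last without D20+ TGF-β replicate 1, a shift larger than its SD pooled over the 4 conditions, though under its SD of 0.174 (log2 scale) among the flasks of D20+ TGF-β. No result changed direction while called. With the 48 lanes as samples the counts of members called rose to 3 in D1+ TGF-β vs D1, 4 in the D20 and D1 comparison with TGF-β and 3 for the difference of responses, and those of pathway genes to 37 in D1+ TGF-β vs D1, 53 in D20+ TGF-β vs D20, 51 in the D20 and D1 comparison with TGF-β, 44 in D20 vs D1 and 33 for the difference, since lanes repeat 1 library. In the order of the pathway counts, 41.4%, 54.8%, 60.8%, 62.6% and 39.3% of all genes were called with lanes as samples. With only its 6 libraries, D1+ TGF-β vs D1 gave 0 members and 7 pathway genes, beside 8.65% of all genes. Without a composition factor it gave 19 pathway genes, beside 15.1% of all genes. In that scaling 0 members were called in the D20 and D1 comparison with TGF-β and for the difference, beside 35.5% and 12% of all genes. The same scaling moved the median difference of all genes to 0.124. For the difference, DESeq2 and no gene filter called 2 members and limma on the deposited log2 values 0. These fits called 14.4%, 6.43% and 9.39% of all their genes. Of the 10 closest genes, 2 were kept with Pearson's correlation. The cause of these shifts was not tested. Leaving out 1 library, pathway genes called ran from 4 to 18 in D1+ TGF-β vs D1, 17 to 34 in D20+ TGF-β vs D20 and 8 to 17 for the difference. In the same order 6.52% to 19.8%, 18.9% to 34.5% and 5.79% to 18.1% of all genes were called. Members called ran from 0 to 2 in the D20 and D1 comparison with TGF-β (24% to 42.4% of all genes) and 0 to 3 for the difference. The fits that left out a library kept the 9490 genes of the full fit, a choice made after seeing the data: with the 10 cpm filter applied again, TXNIP was lost in 6 of 12 fits, and the pathway range at D20 was 16 to 33. Replicate numbers did not pair the flasks: of 18 same-numbered pairs, 4 had a correlation over 0.1 (-0.22 to 0.32), and 5 of 12 libraries were closest to their own number. The replicate block changed no count by over 1.5 times: with it 10 and 22 pathway genes were called in D1+ TGF-β vs D1 and D20+ TGF-β vs D20, and 1 and 4 members, beside 11.3% and 25.1% of all genes. It ended the calls of MXD1 at D20 and TKT at D1 (adjusted p 0.0126 each). Genes that missed the filter of 10 cpm in 6 libraries were not tested in the main fit, a limit set by the filter. The fit without a gene filter tested 20434 genes.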

Other observations

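Of the 7836 tested genes with a promoter window, 12.8% were called higher and 14.2% lower in D20+ TGF-β vs D20. Among the 742 whose window held CACGTG, as that of ARRDC4 does, 17.8% were higher and 9.70% lower (median log2 fold change 0.07 against 0.01), and this difference was not tested. In D1+ TGF-β vs D1 the shares were 5.80% and 6.20%, beside 7.02% and 6.21%. Besides TXNIP, 10 tested genes held the paired half-site: at D20 RCN3 was higher (1.28, SE 0.07, edgeR adjusted p = 3.46e-08) and STX12 lower (-0.96, SE 0.07, adjusted p = 1.65e-07), and at D1 GFPT1 (0.51, SE 0.09, adjusted p = 9.79e-04), P4HA1 (0.88, SE 0.11, adjusted p = 7.58e-05) and RCN3 (0.82, SE 0.07, adjusted p = 5.30e-06) were higher. These genes were named after their values were seen.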
